A study of Mus musculus with 4 samples.

Results

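Oxidative phosphorylation subunit genes encode the proteins of the 5 enzyme complexes of the inner mitochondrial membrane that turn the oxidation of nutrients into ATP. They were taken from the gene count tables by symbol: Nduf genes with a subunit letter and number and Ndufab1 for complex I, Sdha to Sdhd for complex II, Uqcr genes for complex III, Cox4 to Cox8 genes for complex IV and Atp5 genes for complex V. Assembly factors named Ndufaf were left out. The rule gave 86 of 23337 gene symbols, with 38 in complex I, 4 in complex II, 8 in complex III, 19 in complex IV and 17 in complex V. All 86 are nuclear genes. None of 26 listed symbols of mitochondrially encoded subunits, alternative spellings included, was among those analysed here. The choice by symbol also took in 4 rows that current naming does not count as subunits. Cox4nb is Emc8, a gene of the endoplasmic reticulum membrane complex that lies beside Cox4i1. Atp5s and Atp5sl are now named for assembly of the distal part of complex I, and Cox7a2l encodes a factor that joins complexes III and IV. Ndufa4 is grouped here with complex I by its name, although its product is now counted with complex IV.

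Cells positive for Tomato were sorted from olfactory epithelium that had regenerated, and profiled by RNA-seq, with 1 mouse per library and 4 libraries in all. The mice carried a Cre recombinase driven by the cytokeratin 5 promoter, floxed Lmnb1 and a Tomato reporter, so that recombination marked horizontal basal cells, a reserve stem cell, and their progeny with fluorescence and deleted the floxed Lmnb1 in them. Controls were Lmnb1+/- and mutants Lmnb1-/- in these cells, on a mixed strain background. Every mouse had received repeated injections of methimazole, which strips the epithelium, at 50 mg/kg each. Recovery was 4 weeks. Experimental groups G1 and G2 each held 1 control and 1 mutant that shared parents, age, sex and handling. By the design text of the series, G1 and G2 differed from each other in age, sex, parents and treatment. The paper lists batch among the differences between the groups as well. The sorted cells were a mixture of neurons and other descendants of the stem cell, and the driver is not confined to the olfactory epithelium, since cytokeratin 5 is also made in other epithelia such as the epidermis.

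Complexes I and II pass electrons from NADH and succinate to ubiquinone, complex III passes them on to cytochrome c, and complex IV gives them to oxygen. Complexes I, III and IV move protons out of the mitochondrial matrix, and complex V, the ATP synthase, makes ATP as protons flow back. Most subunits are encoded in the nucleus, where transcription factors such as NRF1, GABP and YY1 are known to bind near the start of many of these genes. Olfactory sensory neurons spend ATP on ion transport and on odorant transduction in their cilia.

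Motif letters near the start sites were counted as a sequence feature that a part of these genes have. RefSeq promoter windows (250 bases before to 50 after the start, build GRCm38.p6) were at hand for 70 of the 86 genes, with 1 window for each annotated start. On either strand, the NRF1 core GCGCNTGCG was in a window of 24 of them (34.3%, against 7.12% of all 27025 genes with windows). The YY1 core AAGATGGC was in 11 (15.7%, against 3.19%) and the ETS core CCGGAAGT, which GABP reads, in 5 (7.14%, against 4.31%). At least 1 core was found for 36 genes (51.4%, against 13.3% of all). By complex, these were 16 of 33 genes in complex I, 2 of 3 in complex II, 4 of 5 in complex III, 2 of 13 in complex IV and 12 of 16 in complex V. To show what these letters look like, 1 stretch is given for each complex, from the member with the most core matches in the bases before both the RefSeq start and the GENCODE gene. Ties, which occurred in complexes III and V, went to the member with the higher mean CPM. Each is on the strand of the gene, with up to 15 bases either side and the cores in capitals. In Uqcrh they are the ETS core, read on the opposite strand, and in the others the NRF1 core, which in Ndufa11 and Cox6a1 matches both strands at 1 place.
Ndufa11 (chr17:56717687-56717726, plus strand): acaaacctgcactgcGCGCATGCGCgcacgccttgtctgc
Sdha (chr13:74350281-74350352, minus strand): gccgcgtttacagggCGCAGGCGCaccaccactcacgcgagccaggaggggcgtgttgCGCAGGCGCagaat
Uqcrh (chr4:116075072-116075096, minus strand): cgaggagtatgccgcACTTCCGGcc
Cox6a1 (chr5:115349051-115349135, minus strand): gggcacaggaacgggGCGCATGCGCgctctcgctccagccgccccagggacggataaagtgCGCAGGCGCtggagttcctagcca
Atp5h (chr11:115420036-115420074, minus strand): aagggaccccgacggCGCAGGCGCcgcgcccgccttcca
A match describes letters in a window and is neither a bound site nor a cause of any value given here.

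The 4 libraries held 14833396 to 23704638 reads assigned to genes. Lmnb1, the targeted gene, had 477 counts in control 1 and 326 in mutant 1, and 395 in control 2 and 149 in mutant 2. This gave a log2 fold change of -0.72 ± 0.31 (SE), and the adjusted p of 0.195 (edgeR likelihood-ratio test) did not pass the threshold. The count covers the whole gene and cannot separate the deleted part. Mutant 1 stood apart in that 39.4% of its uniquely aligned reads fell in no counted gene feature, against 22.1% to 24.9% in the others. The counts do not say where in the genome those reads lay. Only 1603 symbols were at 0 in mutant 1, against 5173 to 6053. Reads with more than 1 alignment, which the counting set aside, came to 67710764 in control 1 and 62182762 in mutant 1, and to 10308536 in control 2 and 6757456 in mutant 2.

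Most of these genes were abundant. Levels are given as CPM (counts scaled to the library total after trimmed mean of M-values factors) and between genes as CPM per kb of the median protein-coding transcript. The mean CPM over libraries had a median of 104 over the 81 genes that passed the filter (CPM above 1 in at least 2 libraries), against 25.5 over all 15438 genes tested. Of the 81, 37 were in complex I, 4 in complex II, 8 in complex III, 15 in complex IV and 17 in complex V. Per kb, the median level rose from 123 CPM per kb in complex I through 154 in complex II, 189 in complex III and 232 in complex IV to 244 in complex V. The ranges of the complexes overlapped widely, at 90.1 to 193 CPM per kb in complex II and 14.3 to 749 in complex V, for example. The 5 highest were Atp5b (749), a catalytic subunit of ATP synthase, Uqcrc1 (636), a core protein of complex III, Cox4i1 (634), a subunit of complex IV, Ndufa4 (619) and Uqcrh (552), the hinge protein of complex III. Their order rests on means over 4 libraries that themselves differed. Cox4i1, for example, was at 872 and 810 CPM per kb in the G1 control and mutant and at 422 and 434 in those of G2. The order and the medians of the complexes also rest on the transcript length used. For Uqcrc1 the median length was 533 bases, whereas its longest transcript had 1653, which would give a much lower level per kb. Its place among the 5 is therefore uncertain.

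The summed level of each complex shows how the 4 libraries compare. Complex I members summed to 4282 CPM in control 1 and 3918 in mutant 1, and to 3005 in control 2 and 2890 in mutant 2. Complex II members summed to 840 and 730 CPM in G1, control first, and to 643 and 650 in G2. Complex III members summed to 1539 and 1449 CPM in G1 and to 1051 and 1147 in G2. In these sums the mutant and its control lay close together, and both G1 libraries lay above both G2 libraries. Complex IV members summed to 2721 and 2474 CPM in G1 and to 1884 and 1829 in G2. Complex V members summed to 5835 and 5362 CPM in G1 and to 4168 and 4214 in G2. Over all 86 genes the log2 ratio of mutant to control was -0.13 in G1 and 0.00 in G2, and that of G2 to G1 was -0.50 in controls and -0.38 in mutants. Each sum was a value of 1 library.

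**Figure D1:**
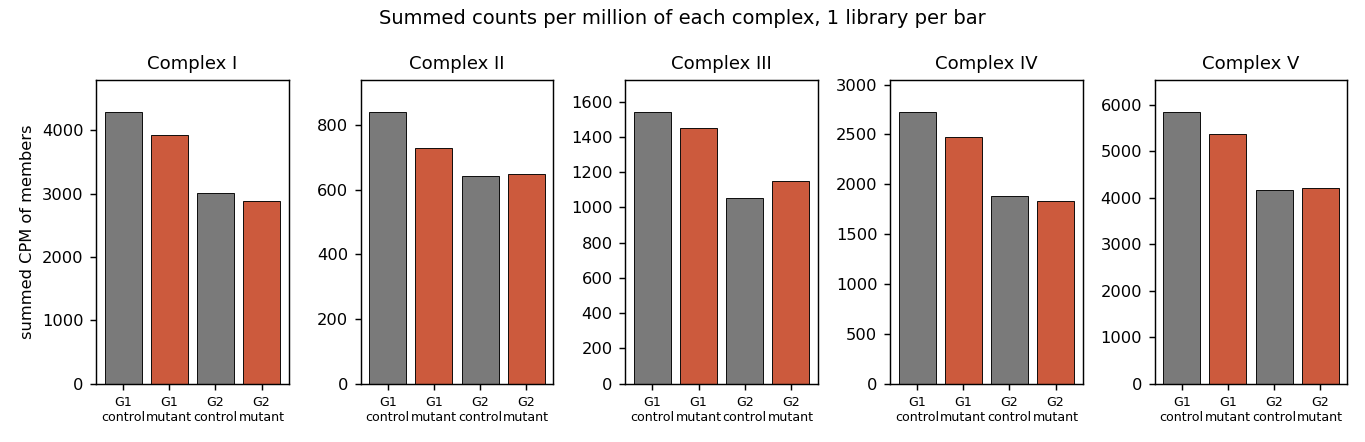
Summed CPM of the members of each complex (y axis, from 0) in the control (grey) and mutant (red) library of each experimental group, 1 library per bar. In every complex the G2 bars are below the G1 bars, and within a group control and mutant differ by at most 0.20 on the log2 scale (complex II, G1).

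Whether loss of lamin B1 changed these genes was asked with a model of genotype and experimental group over all tested genes. No member passed the threshold (adjusted p under 0.05, edgeR likelihood-ratio test), 0 lower and 0 higher of 81. Across all tested genes 4.3% were called lower and 1.28% higher. At an unadjusted p under 0.05 there were 4 members, 3 lower and 1 higher, which is 4.94% of 81 against 15.9% of all tested genes. edgeR's quasi-likelihood test and DESeq2 also called 0. The median log2 fold change was -0.06 in complex I, -0.11 in complex II, 0.01 in complex III, -0.07 in complex IV and -0.08 in complex V, against -0.01 over all tested genes. Estimates were negative for 25 of 37 members in complex I, 4 of 4 in complex II, 3 of 8 in complex III, 11 of 15 in complex IV and 12 of 17 in complex V. Their SE had a median of 0.19.

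A p that misses the threshold does not show equal levels, so the intervals are given. The 95% interval of the fold change lay wholly within 1.5-fold in either direction for 62 of 81 members (76.5%) and within 2-fold for 78 (96.3%). Among all tested genes, most of which had lower counts, these shares were 27.8% and 59.4%. By complex, the interval lay within 1.5-fold for 32 of 37 members in complex I, 4 of 4 in complex II, 6 of 8 in complex III, 8 of 15 in complex IV and 12 of 17 in complex V. The 3 members whose interval reached past 2-fold were Ndufs5, Cox6b2 and Cox7a1, all with few counts.

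**Figure D2:**
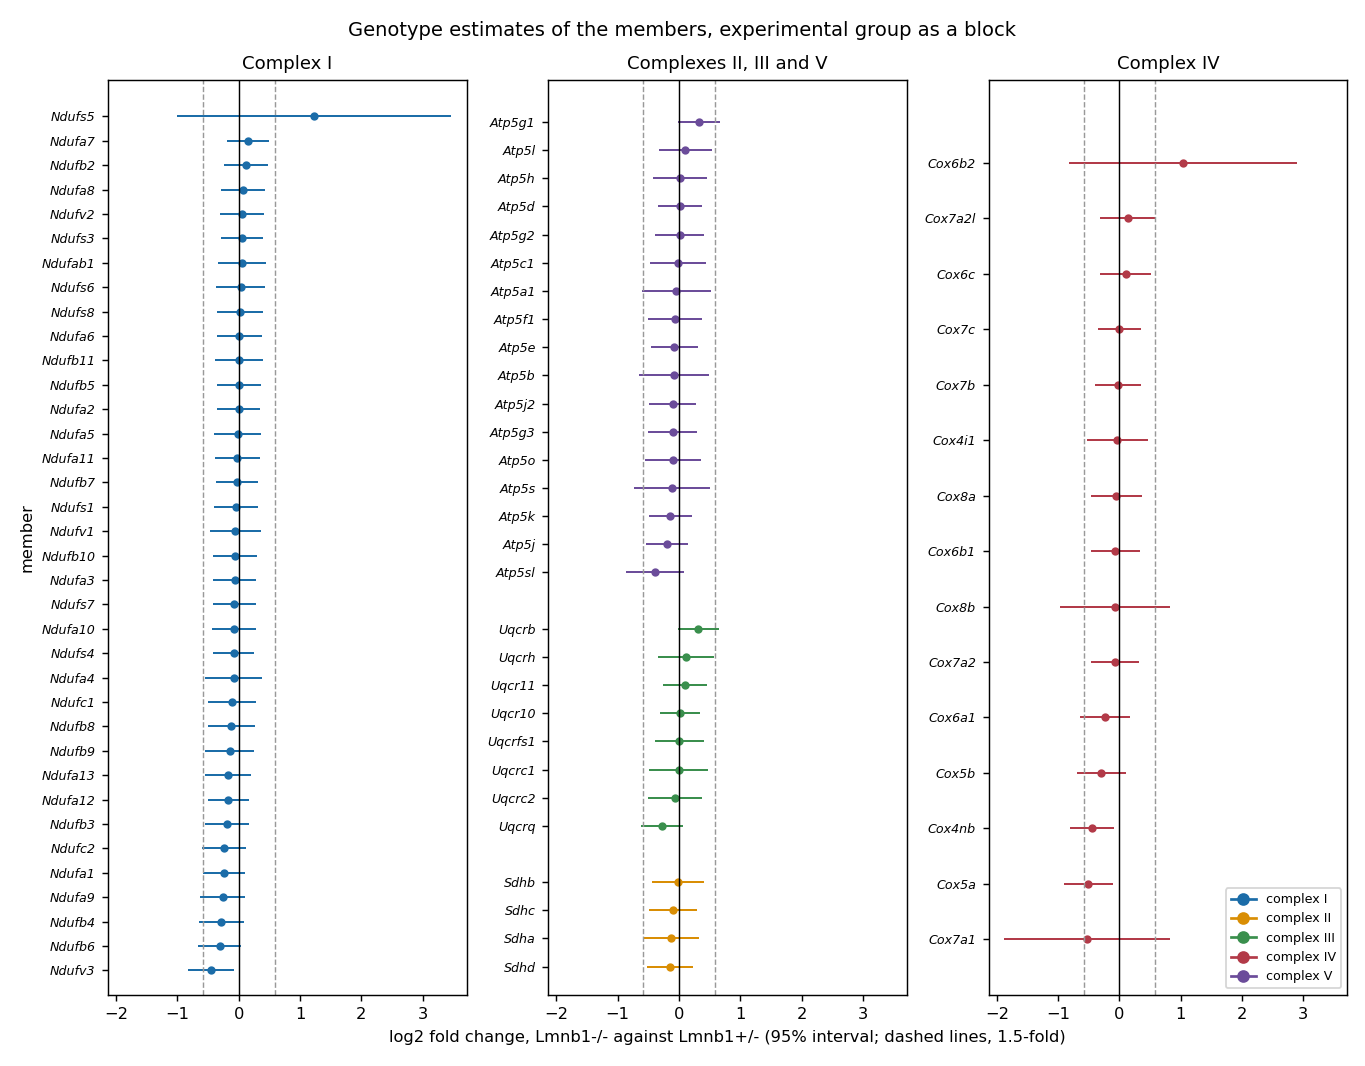
Log2 fold change of Lmnb1-/- against Lmnb1+/- (x axis; point, estimate; bar, 95% interval) for 80 members, with dashed lines at 1.5-fold. Of the intervals, 61 lie within the dashed lines, and the widest belong to Ndufs5, Cox6b2 and Cox7a1.

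The same genes were read within each experimental group as log2 ratios of 1 mutant to 1 control, which carry no test. In complex I the median ratio was -0.08 in G1 (24 of 37 members below 0) and -0.05 in G2 (22 of 37). In complex II it was -0.21 in G1 (4 of 4) and 0.01 in G2 (2 of 4). In complex III it was -0.09 in G1 (5 of 8) and 0.12 in G2 (2 of 8). Complexes II and III thus had medians on opposite sides of 0 in G1 and G2. In complex IV the median ratio was -0.16 in G1 (12 of 15) and -0.07 in G2 (8 of 15), and in complex V -0.12 in G1 (15 of 17) and 0.01 in G2 (8 of 17). Over all tested genes the medians were -0.03 and 0.00. With library totals alone as the scale, the G1 medians of complexes I (0.022) and III (0.0035) lay above 0, and with length and GC offsets the G2 medians of complexes II (-0.024) and V (-0.032) lay below it. The 2 ratios of a member differed with a median SD of 0.11 in complex I, 0.19 in complex II, 0.17 in complex III, 0.12 in complex IV and 0.10 in complex V, which is as large as most of these medians. Ratios had the same sign in both groups for 45 members, negative for 33 and positive for 12, and opposite signs for 36.

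Ratios of 1.5-fold or more were few. In G1, 1 of 81 members was lower by that much (11.9% of all tested genes) and 2 were higher (13.6%). In G2, 0 were lower (14.9%) and 1 was higher (11.1%). The member lower in G1 was Cox5a, the members higher in G1 were Cox6b2 and Ndufs5, and the member higher in G2 was Ndufs5. The median size of the ratio without its sign was 0.14 in G1 and 0.13 in G2, against 0.31 and 0.29 over all tested genes. These comparisons were not matched for level, since the median mean CPM was 104 over members and 25.5 over all tested genes.

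**Figure D3:**
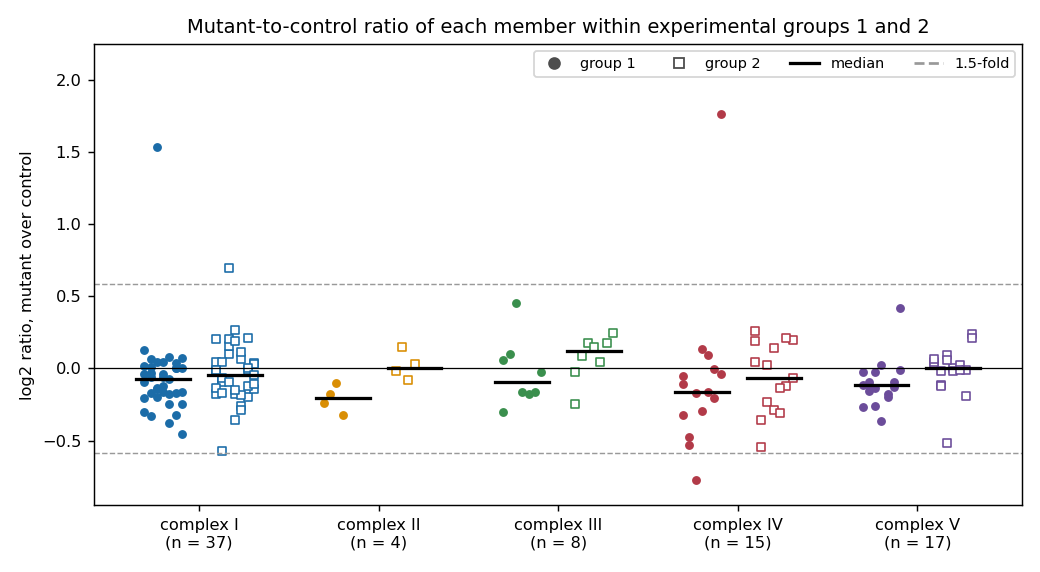
Log2 ratio of mutant to control (y axis) for each tested member, by complex (x axis), in G1 (filled circles) and G2 (open squares), with medians as black bars and 1.5-fold as dashed lines. The medians lie between -0.21 and 0.12, and 4 points lie beyond the dashed lines.

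In complex I, the core subunits of the NADH-oxidising arm had ratios near 0. Ndufs1, which carries iron-sulfur clusters, was at 93.6 and 95.9 CPM in G1, control first, and at 143 and 132 in G2, with a log2 fold change of -0.04 ± 0.18 (SE; adjusted p = 0.961, edgeR). Ndufv1, which binds NADH and flavin, was at 248 and 249 CPM in G1 and at 157 and 145 in G2 (-0.05 ± 0.21). Neither differed between control and mutant by more than the G1 and G2 libraries differed. Ndufv3, an accessory subunit of the same arm, had the most negative estimate of complex I, with 173 and 137 CPM in G1 and 112 and 75.0 in G2. Its log2 fold change was -0.45 ± 0.19 (adjusted p = 0.155, edgeR), lower in both pairs, but control 2 lay below mutant 1, so the genotypes overlapped. Without the block, it was -0.018 with mutant 2 left out and -0.93 with mutant 1 left out. Ndufa4, the most abundant row named for complex I, was at 318 and 276 CPM in G1 and at 269 and 277 in G2.

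Ndufs5, a small subunit on the intermembrane side, had only 12 counts in control 1 and 39 in mutant 1, and 15 in control 2 and 18 in mutant 2. Its log2 fold change of 1.23 ± 1.13 (adjusted p = 0.697, edgeR) was the most positive of all members and the least certain. Of its 50-base words, 31.1% also occur in transcripts of another gene, whose reads the counting could not assign to it. At 1.84 CPM per kb its row ranked last of the 81 tested members. The part of such uncounted reads in that rank was not tested, so it may not be the level of the gene.

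In complex II, the whole enzyme was measured by 4 genes. Sdha, the flavoprotein that oxidises succinate, was at 258 and 218 CPM in G1 and at 275 and 272 in G2. Sdhb, the iron-sulfur subunit, was at 251 and 222 CPM in G1 and at 139 and 154 in G2. The mutant of G1 lay below its control for both, whereas in G2 Sdhb was higher in the mutant. The log2 fold changes were -0.13 ± 0.22 for Sdha and -0.01 ± 0.21 for Sdhb, and those of the membrane anchors were -0.09 ± 0.19 for Sdhc and -0.15 ± 0.18 for Sdhd.

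In complex III, Uqcrc1 was at 472 and 421 CPM in G1 and at 219 and 243 in G2. Uqcrfs1, the Rieske iron-sulfur protein, was at 175 and 156 CPM in G1 and at 115 and 130 in G2. Uqcrh was at 284 and 280 CPM in G1 and at 222 and 262 in G2. Each was lower in the mutant of G1 and higher in the mutant of G2, with log2 fold changes of -0.01 ± 0.24, 0.00 ± 0.19 and 0.11 ± 0.22.

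In complex IV, Cox5a, a subunit on the matrix side, had the smallest p of all members. It was at 185 CPM in control 1 and 108 in mutant 1, and at 92.3 in control 2 and 78.5 in mutant 2. The mutant was lower in both pairs, but control 2 lay below mutant 1. Its log2 fold change was -0.51 ± 0.19 (SE; 95% interval -0.88 to -0.13; adjusted p = 0.119, edgeR), with ratios of -0.77 in G1 and -0.23 in G2. It passed the threshold only with offsets on gene length and GC content, at -0.61 with an adjusted p of 0.0453 (edgeR). Of its words, 32.0% also occur in another gene's transcripts. Cox4nb was at 143 and 98.6 CPM in G1 and at 96.3 and 75.2 in G2 (-0.45 ± 0.18, adjusted p = 0.139, edgeR). Cox4i1 was at 649 and 603 CPM in G1 and at 314 and 324 in G2 (-0.03 ± 0.25), lower in the mutant of G1 and higher in that of G2. Cox4nb and Cox4i1 overlap where they meet, and without a known strand setting the reads of that overlap cannot be told apart. Cox7a2l was at 270 and 297 CPM in G1 and at 237 and 262 in G2 (0.14 ± 0.22), higher in both mutants by less than its SE.

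Several complex IV subunits exist in a broad and a tissue-restricted form, and the broad forms made up nearly all counts here. Cox6a1 was at 138 to 200 CPM, while its heart and muscle partner Cox6a2 had 0 counts in all 4 libraries, for which 3 counts, or 0.127 to 0.202 CPM, is the limit. Cox7a2 was at 124 to 192 CPM, and its heart and muscle partner Cox7a1 at 4.62 and 3.30 CPM in G1 and 2.62 and 1.76 in G2. Cox7a1 had the most negative estimate of all members, -0.53 ± 0.68 (adjusted p = 0.815, edgeR), from 26 to 107 counts. Cox8a was at 172 to 222 CPM and its muscle partner Cox8b at 6.50 to 8.81. Cox6b1 was at 145 to 186 CPM, and the testis form Cox6b2 had 17 and 63 counts in G1 and 32 and 26 in G2 (1.05 ± 0.94, adjusted p = 0.697, edgeR). Its high value was that of mutant 1 alone.

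The rows that failed the filter were likewise restricted forms. Cox4i2, a form known from lung and from low oxygen, had 1 count in control 1 and 16 in mutant 1, and 0 in control 2 and 3 in mutant 2. The testis forms Cox7b2 and Cox8c had 3 counts each in mutant 1 and 0 in the other libraries, whereas Cox7b, the broad partner of Cox7b2, was at 109 to 135 CPM. Ndufa4l2, induced by low oxygen, had 20 and 12 counts in G1 and 5 and 0 in G2, control first. Cox4i2, Cox6b2, Cox7b2, Cox8c and Ndufs5 thus had their highest count in mutant 1. In that library 39.4% of uniquely aligned reads fell in no counted gene feature, and the fewest symbols were at 0. The part of that library in these values was not tested.

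In complex V, both catalytic core subunits had the highest CPM of all members, without scaling for length. Atp5b was at 1766 and 1587 CPM in G1 and at 1202 and 1187 in G2 (-0.09 ± 0.28), and Atp5a1 at 1411 and 1303 CPM in G1 and at 1043 and 1062 in G2 (-0.04 ± 0.28). The mutant differed from its control by less than G2 differed from G1 for both. Atp5g1, Atp5g2 and Atp5g3 encode the same mature ring subunit c of the proton channel. Atp5g1 was at 64.4 and 85.9 CPM in G1 and at 62.6 and 73.9 in G2. Both mutants lay above both controls, with a log2 fold change of 0.33 ± 0.16 (unadjusted p = 0.0451, adjusted p = 0.298, edgeR). Atp5g2 was at 187 and 183 CPM in G1 and at 147 and 151 in G2 (0.01 ± 0.20), and Atp5g3 at 207 and 194 in G1 and at 154 and 142 in G2 (-0.10 ± 0.20). Atp5g1 was thus the smallest contributor of the 3 to the counts and had the only estimate above its SE. Of their 50-base words, 11.6% in Atp5g1, 14.8% in Atp5g2 and 0.0% in Atp5g3 also occur in transcripts of other genes. The part of such shared sequence in these counts was not tested.

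Other genes of mitochondrial and energy metabolism were read from fixed lists. Of complex I assembly factors, 1 of 11 tested rose in the mutant and 0 fell. It was Acad9, at 72.9 and 147 CPM in G1 and 96.3 and 117 in G2 (0.64 ± 0.21, adjusted p = 0.0439, edgeR). Of tricarboxylic acid cycle enzymes, 1 of 19 rose and 0 fell. It was Suclg2, a subunit of succinyl-CoA synthetase, at 57.0 and 85.7 CPM in G1 and 84.6 and 121 in G2 (0.55 ± 0.17, adjusted p = 0.0312, edgeR). Of glycolytic enzymes, 1 of 20 fell and 0 rose. It was Eno2, the enolase of neurons, at 39.6 and 22.5 CPM in G1 and 21.2 and 9.22 in G2 (-1.001 ± 0.26, adjusted p = 0.00507, edgeR). Of the import and cristae genes, 1 of 22 fell and 0 rose. It was Timm17a, of the inner membrane translocase, at 77.9 and 56.6 CPM in G1 and 65.3 and 39.9 in G2 (-0.58 ± 0.17, adjusted p = 0.0177, edgeR). No gene was called in either direction by the same test among 18 assembly factors of complexes II to V, 17 electron carrier and ubiquinone synthesis genes, 6 ATP and phosphate carrier genes, 17 biogenesis regulators, 11 hypoxia-inducible genes and 76 mitochondrial ribosomal proteins. The list medians were between -0.15 and 0.02. Across all tested genes the test called 4.3% lower and 1.28% higher, and the lists with 1 call held 11 to 22 tested genes.

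Cell type markers moved in the same comparison in which the subunit genes did not pass the test. Of mature olfactory sensory neuron markers, 16 of 17 tested fell in the mutant and 0 rose, with a median log2 fold change of -1.29. Their summed level was 26545 CPM in control 1 and 14837 in mutant 1, and 13302 in control 2 and 4544 in mutant 2. Of the immature neuron markers, 3 of 14 fell and 0 rose. Of basal progenitor and cell cycle genes, 7 of 14 rose and 0 fell, and of horizontal basal cell markers 2 of 10 rose and 0 fell. Of ciliated respiratory cell markers, 3 of 9 fell. None of 9 sustentacular, 15 immune and 3 muscle and erythroid markers was called by edgeR. A missing call does not show equal levels, and the median ratio of the immune markers was -1.57 in G1 and 1.29 in G2. Over all tested genes 4.3% were called lower and 1.28% higher. In sorted bulk cells, fewer cells of a type and less RNA per cell cannot be told apart. Krt5, whose promoter drove Cre, was at 1043 and 1410 CPM in G1 and at 628 and 818 in G2. Omp, the marker protein of mature neurons, was at 9665 and 5359 CPM in G1 and at 3267 and 912 in G2. Set beside this, the 86 subunit genes together went from 15217 to 13932 CPM in G1 and from 10752 to 10729 in G2.

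The 2 experimental groups were compared in the same model, with genotype held. By the design text they differed in age, sex, parents and treatment, and the paper also lists batch. These cannot be told apart. Of the 81 members, 38 were lower and 2 higher in G2 (adjusted p under 0.05, edgeR likelihood-ratio test), against 14.0% of all tested genes lower and 17.7% higher. In complex I, 21 of 37 members were lower and 1 was higher. In complex II, 2 of 4 were lower, and in complex III 3 of 8 were lower and 1 was higher. In complex IV, 6 of 15 were lower, and in complex V 6 of 17. The median log2 difference of G2 against G1 was -0.55 in complex I, -0.44 in complex II, -0.41 in complex III and -0.43 in complexes IV and V, against -0.03 over all tested genes. It was present within each genotype. The median over all members was -0.50 between the controls and -0.42 between the mutants, and 66 of 81 members were lower in G2 in both (39.4% of all tested genes).

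The members with the largest difference, named here after their values were seen, lay on the membrane arm of complex I. Ndufb4 was at 165 CPM in control 1 and 127 in mutant 1, and at 66.8 in control 2 and 58.7 in mutant 2. Both G2 libraries lay far below both G1 libraries, with a log2 difference of -1.21 ± 0.18 (SE; adjusted p = 1.55e-09, edgeR). Ndufb8 was at 204 and 182 CPM in G1 and at 93.5 and 89.1 in G2 (-1.08 ± 0.19, adjusted p = 2.88e-07, edgeR). Ndufb6 was at 109 and 79.1 CPM in G1 and at 49.0 and 44.3 in G2 (-0.996 ± 0.17, adjusted p = 1.52e-07, edgeR). Of their 50-base words, 37.0% in Ndufb4, 34.1% in Ndufb6 and 4.06% in Ndufb8 also occur in transcripts of other genes. The part of such shared sequence in these differences was not tested. In the other complexes the largest were Sdhb (-0.70), Uqcrc1 (-0.95), Cox4i1 (-0.97) and Atp5sl (-0.89), the last no subunit by current naming. The 2 members higher in G2 were Ndufs1 (0.54 ± 0.18) and Uqcrb (0.61 ± 0.16), a subunit of complex III at 52.9 and 72.6 CPM in G1 and 88.7 and 100 in G2. Of the words of Uqcrb, 43.4% also occur in transcripts of other genes, against 5.93% of those of Ndufs1. Of the most abundant members, Atp5b (-0.49 ± 0.28) and Atp5a1 (-0.37 ± 0.28) did not pass the likelihood-ratio test. Both passed edgeR's quasi-likelihood test (adjusted p = 0.0061 for Atp5b and 0.026 for Atp5a1) and DESeq2 (adjusted p = 0.00024 and 0.0086). With length and GC offsets neither passed (adjusted p = 0.493 and 0.726, edgeR likelihood-ratio test).

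The difference between groups moved with GC content. Across the 81 members the group difference and the GC content of their transcripts had a Pearson r of -0.45 and a Spearman rho of -0.41, and across 15257 tested genes r was -0.27 and rho -0.38. These are descriptions over genes that share the same 4 libraries. The 13 members with GC content up to 48% had a median difference of -0.12, the 26 from there to 52% one of -0.38, the 29 up to 56% one of -0.58 and the 13 above it one of -0.63. All tested genes in the same ranges had medians of 0.40, 0.04, -0.25 and -0.38, each above that of the members. With smooth offsets for the length and GC content of genes, an alternative chosen after seeing the data, 12 members were lower and 2 higher in G2. Over all genes, 8.21% were then called lower and 14.3% higher. By complex the lower calls were 8 in complex I, 0 in complex II, 1 in complex III, 2 in complex IV and 1 in complex V. The medians became -0.27, -0.34, -0.28, -0.15 and -0.18 in complexes I to V, against 0.05 over all tested genes. Ndufb4 stayed at -1.03 (adjusted p = 9.06e-07, edgeR) and Ndufb6 at -0.88 (adjusted p = 1.31e-05, edgeR), while Cox4i1 (-0.58) and Uqcrc1 (-0.54) no longer passed. The genotype estimates had no such relation to GC content (rho -0.03 over members).

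**Figure D4:**
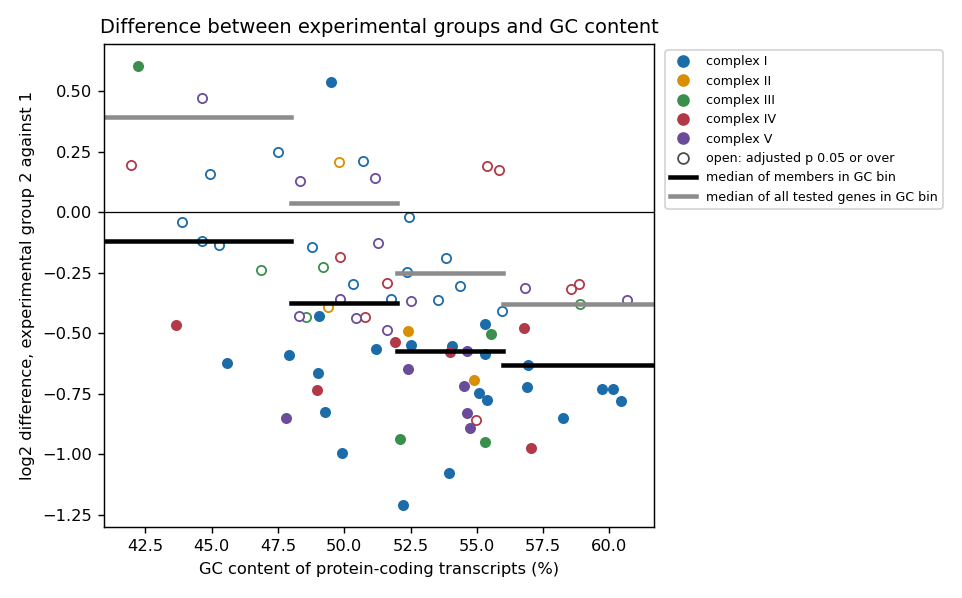
Log2 difference of G2 against G1 (y axis) by GC content of the transcripts in percent (x axis) for the 81 tested members, filled where the adjusted p is under 0.05, with medians in 4 GC ranges for members (black) and all tested genes (grey). Both medians fall as GC content rises, from -0.12 to -0.63 for members and from 0.40 to -0.38 for all tested genes.

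**Figure D5:**
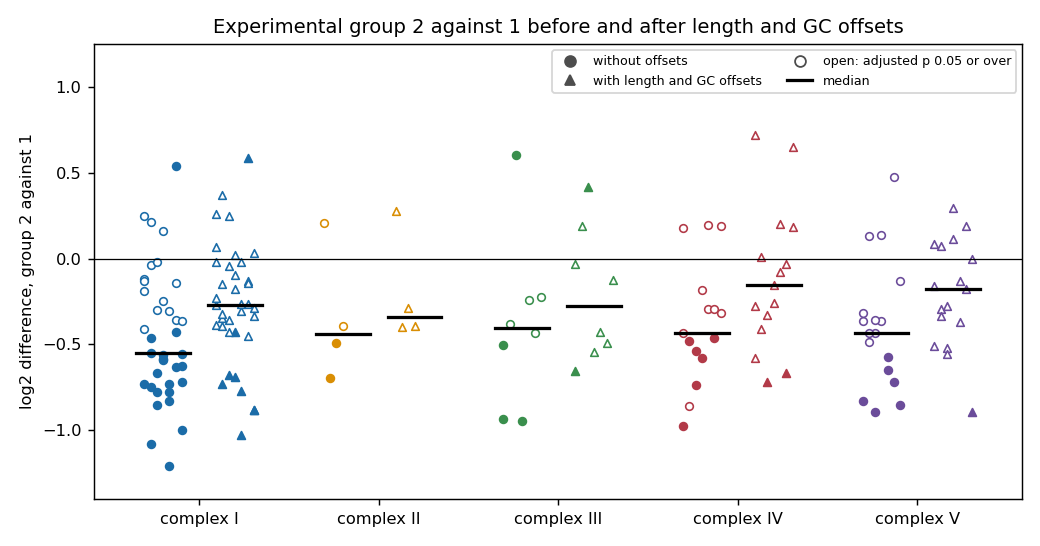
Log2 difference of G2 against G1 (y axis) by complex (x axis) without (circles) and with (triangles) offsets on gene length and GC content, filled where the adjusted p is under 0.05, with medians as black bars. The members called lower go from 38 to 12, and every median stays below 0.

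Other measures moved with the groups as well. Of the 81 members, 35 shared no 50-base word with another gene, and their median difference was -0.41 with 14 called lower. The 16 with over 20% of words shared had -0.57 with 10 called lower. Reads with more than 1 alignment were at least 62182762 in each G1 library and at most 10308536 in each G2 library. Of mature neuron markers, 13 of 17 were lower in G2 and 0 higher, and of sustentacular markers 7 of 9 were higher and 0 lower. Among the related lists, 21 of 76 mitochondrial ribosomal proteins were lower in G2 and 2 higher (median -0.38), and 8 of 20 glycolytic enzymes were lower and 2 higher (median -0.52), beside 14.0% lower and 17.7% higher of all tested genes. With length and GC offsets the lower calls were 9 ribosomal proteins and 4 glycolytic enzymes (8.21% of all tested genes), and 15 mature neuron markers. Biogenesis regulators had 1 lower and 3 higher of 17 (median 0.13). The part of these measures in the difference between G1 and G2 was not tested beyond the offsets.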

How the data were processed

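The deposited counts are whole reads for each gene symbol, which the authors obtained with HTSeq (intersection-nonempty) after Ribo-Zero depletion, removal of ribosomal reads with Bowtie2 2.0.6, quality filtering and alignment of single-end reads to mm10 with TopHat2 2.0.7. The HTSeq version, strand setting and annotation are not given in the sources used here. Reads with more than 1 alignment were not counted, so genes with near-identical copies are uncertain, and the 5 tally lines per library were left out. Library totals were 14833396 to 23704638, at which 3 counts, the detection limit for counting error only, are 0.127 to 0.202 CPM.

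Genes with a CPM above 1 in at least 2 libraries were tested in edgeR 4.0.16 (R 4.3.3) with TMM factors, genotype and experimental group as terms and the likelihood-ratio test, a model taken from the study's methods, adjusted by Benjamini-Hochberg over 15438 genes. SE and 95% intervals are Wald values. With the group term in the model, p-values rest on how far the mutant-to-control ratios of the 2 groups disagree. Dispersions are partly shared across genes. Over all tested genes, 664 were called lower and 197 higher in the mutant, and without the group term 0 lower and 6 higher. In the code that the study printed, tally lines stayed among the rows, so its library totals, filter and set of tested genes differ from those used here. The group number pairs libraries by the labels, and same-numbered libraries deviated together (correlation 0.522). Ratios within a group used log2 CPM with a prior count of 2. Transcript length, GC content and shared 50-base words came from GENCODE, in which all 86 members matched. The fits were also run on simulated counts with a lower dispersion than these data and no difference between experimental groups. That run does not show how the fits perform on data like these.

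As alternatives, the fits were repeated with DESeq2 1.42.0, edgeR's quasi-likelihood test, no replicate block, RLE factors, library totals, no filter, a CPM above 1 in all 4 libraries, thinned counts, length and GC offsets, a prior count of 0.5 and left-out libraries. The members, lists and named genes were chosen with earlier results of these data known. The rule named the members past the genotype threshold, the 3 lowest and 3 highest estimates, the 2 most abundant per complex, core subunits, tissue-restricted forms with their partners, and list members past the threshold. A member that the rule also named is not reported here, although counts and medians include it.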

Additional observations from a re-analysis of the deposited data

Results flagged for a closer look

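Mutant-to-control ratios went opposite ways in G1 and G2 for several results, each group with 1 mutant and 1 control. The difference between groups was not tested, and differences are given as G2 minus G1 on the log2 scale. The complex medians with opposite signs were those of complex II (a difference of 0.21), complex III (0.21) and complex V (0.12). Among the named members, the ratio was negative in G1 and positive in G2 for Atp5a1 (0.14), Atp5g2 (0.069), Cox4i1 (0.15), Cox7a2 (0.19), Cox8b (0.51), Ndufa4 (0.25), Sdhb (0.32), Uqcrc1 (0.32), Uqcrfs1 (0.34) and Uqcrh (0.26). It was positive in G1 and negative in G2 for Cox7b (-0.23), Ndufs1 (-0.16) and Ndufv1 (-0.11). The 3 complex III genes Uqcrc1, Uqcrfs1 and Uqcrh are all in the first set. Beside the gene counts, mutant 1 had 39.4% of its uniquely aligned reads in no counted gene feature, above both controls.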

How the results depend on the processing

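The count of 0 members past the genotype threshold held under every alternative but 1: with length and GC offsets 1 member, Cox5a, was called lower (log2 fold change -0.61). Without the replicate block the counts were 0 lower and 0 higher, with unadjusted p under 0.05 for 0 members, and without any 1 library they were also 0 to 0. The calls of G2 against G1 moved by over 1.5 times in 1 alternative, the length and GC offsets, from 38 to 12 lower. Complex medians and within-group ratios moved by less than the spread between the groups in every alternative run, subunits by current naming alone included. Of the 26 named and tested members, 52 of 334 values had the other sign, none past the threshold. With all libraries kept these were log2 fold changes of Atp5a1 0.013, Cox4i1 0.025, Cox7b 0.039, Cox8a 0.0054, Ndufs1 0.015, Ndufv1 0.0044, Sdhb 0.044, Uqcrc1 0.049 with library totals alone, of Atp5g2 -0.026, Uqcrfs1 -0.074 with length and GC offsets, of Cox7b 0.0065, Sdhb 0.011, Uqcrc1 0.017 with no filter, of Cox8b 0.027, Uqcrc1 0.0040, Uqcrfs1 -0.0091 with thinned counts, of Uqcrc1 0.0018 with RLE factors, of Uqcrc1 0.0011 with DESeq2, of Uqcrfs1 -0.019 with no replicate block. Leaving out 1 library removes the block, so the difference between G1 and G2 enters the estimate, and the named members that changed sign ranged as follows: Atp5a1 -0.22 to 0.19, Atp5b -0.33 to 0.22, Atp5g2 -0.15 to 0.20, Atp5g3 -0.35 to 0.14, Cox4i1 -0.58 to 0.57, Cox5a -0.94 to 0.027, Cox6b1 -0.25 to 0.14, Cox7a2 -0.34 to 0.27, Cox7b -0.16 to 0.18, Cox8a -0.23 to 0.14, Cox8b -0.25 to 0.14, Ndufa4 -0.16 to 0.049, Ndufs1 -0.33 to 0.32, Ndufv1 -0.49 to 0.34, Sdha -0.26 to 0.024, Sdhb -0.37 to 0.45, Uqcrc1 -0.52 to 0.61, Uqcrfs1 -0.25 to 0.32 and Uqcrh -0.026 to 0.30. Among those that kept their sign, Ndufv3 ranged from -0.93 (without mutant 1) to -0.018 (without mutant 2) and Cox7a1 from -1.05 (without mutant 1) to -0.031 (without control 1). With 2 mice per genotype and a median SE of 0.19, changes well under 1.5-fold could not be resolved, leaving out a library left no test of G2 against G1, and a difference of the genotype effect between G1 and G2 had no test.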

Other observations

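Beyond the subunit genes, Ppargc1a, a coactivator of mitochondrial biogenesis, was at 15.8 and 13.7 CPM in G1 and at 32.3 and 10.9 in G2, control first, with a log2 fold change of -0.88 ± 0.35 that did not pass the threshold (adjusted p = 0.149, edgeR). Cycs, cytochrome c, was at 183 and 170 CPM in G1 and at 162 and 129 in G2. The adenine nucleotide carrier Slc25a4 was at 106 and 113 CPM in G1 and at 103 and 125 in G2, and Slc25a5 at 654 and 566 in G1 and at 495 and 454 in G2. These 4 genes were chosen here after their values were seen.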
